A study of Mus musculus with 10 samples.

Results

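The 46 genes described here belong to the machinery that copies DNA and divides the cell, 21 of them with roles in S-phase and replication and 25 with roles in mitosis. They were taken from a list of gene symbols, and a gene was measured when a probe set carried its symbol and no other. All 46 of 46 were measured, by 48 probe sets, among 19937 genes on the array. Gene expression was measured on 10 Affymetrix Mouse Gene 1.0 ST arrays of splenic B cells, purified by FACS for the surface proteins B220 and CD22, from mice of the CBAxC57BL/6J strain. The 3 wild-type arrays came from mice without the transgene. The 3 floxed arrays came from Sca1-Bcl6(floxed) mice, in which a Bcl6-IRES-eGFP cassette between loxP sites stands in a Ly6a (Sca1) vector, Sca1 being a surface marker of blood stem and progenitor cells. The 4 delta arrays came from Sca1-Bcl6(Δ) mice, made by breeding floxed mice to mb1-Cre mice, whose Cre acts in the B lineage, so that these mice carry the Cre allele as well. Per the labels 2 independent transgenic lines were generated, and which line, age or sex belongs to which array is not given. The labels do not say that each array is a separate animal, so p-values measure the spread between these samples.

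Cells entering S-phase load the MCM helicase onto replication origins with the help of Cdc6 and Cdt1, cyclin E drives the entry, and polymerases, the sliding clamp Pcna and the enzymes of nucleotide synthesis then copy the genome. Mitosis follows under cyclin-dependent kinase 1, with condensins packing the chromosomes, kinesins and Aurora kinases building the spindle, and a checkpoint that holds anaphase until chromosomes are attached. Most splenic B cells are resting, while germinal centre B cells, whose master regulator is the repressor Bcl6, divide quickly. E2F factors act on promoters of many S-phase genes, and promoters of many mitotic genes hold a cell cycle homology region (CHR) and CCAAT boxes, the latter bound by NF-Y.

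Promoters were examined as the 250 bases before the start given in a RefSeq promoter table of build GRCm38.p6, on both strands, and the table held 38 of the 46 members. In 16 of the 39 member promoters this window reaches into the gene's span in the RefSeq gene table, which begins farther upstream, so distances and shares depend on the start used. The span begins up to 845 bases before the start used, so at least 1 window lies wholly inside the gene's span. Such windows are counted in the shares below. Ccne2, Gins1, Gins2, Mcm4, Ccna2, Aurkb, Kif20a and Tpx2 were not analysed here. The searched letters were TTTCGCGC, TTTGGCGC, TTTCCCGC and TTTGCCGC for E2F, TTTGAA for the CHR and CCAAT for the CCAAT box, each with its reverse complement. An E2F match was present in 27.8% of S-phase promoters (5 of 18) and in 4.76% of mitotic promoters (1 of 21), against 2.46% of 19176 promoters of measured genes. A CHR match was present in 11.1% of S-phase and 42.9% of mitotic promoters (2 of 18 and 9 of 21), against 13.4% of promoters of measured genes. CCAAT was present in 72.2% of S-phase and 81.0% of mitotic promoters (13 of 18 and 17 of 21), against 34.5%. These matches are descriptions of letters, and the arrays carry no measure of factor binding.

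The promoters below belong to members with the smallest p-values in their class that had an entry (Mcm2, Rrm2, Kif11 and Cdk1), and to Mcm6, Mki67 and Top2a, which were chosen after their values were seen to show repeated matches. Capitals mark E2F, CHR and CCAAT matches on either strand, and each run is read 5′ to 3′ on the strand of the gene. The last 71 bases of the window of Mki67 and the last 10 of Top2a lie inside the gene's span and are not printed, while distances are counted from the promoter table's start.
Mcm2 (chr6:88898781-88899030, minus strand): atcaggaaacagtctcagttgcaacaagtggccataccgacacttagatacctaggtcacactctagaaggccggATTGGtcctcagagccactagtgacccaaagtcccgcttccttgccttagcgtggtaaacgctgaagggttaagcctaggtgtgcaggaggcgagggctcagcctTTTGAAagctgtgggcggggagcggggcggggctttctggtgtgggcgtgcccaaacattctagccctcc
Rrm2 (chr12:24708004-24708253, plus strand): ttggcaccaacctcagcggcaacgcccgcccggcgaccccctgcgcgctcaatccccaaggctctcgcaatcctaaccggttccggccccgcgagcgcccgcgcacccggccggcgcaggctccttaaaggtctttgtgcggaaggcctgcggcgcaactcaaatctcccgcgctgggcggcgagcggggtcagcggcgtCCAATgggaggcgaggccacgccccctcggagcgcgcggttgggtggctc
Mcm6 (chr1:128359706-128359955, minus strand): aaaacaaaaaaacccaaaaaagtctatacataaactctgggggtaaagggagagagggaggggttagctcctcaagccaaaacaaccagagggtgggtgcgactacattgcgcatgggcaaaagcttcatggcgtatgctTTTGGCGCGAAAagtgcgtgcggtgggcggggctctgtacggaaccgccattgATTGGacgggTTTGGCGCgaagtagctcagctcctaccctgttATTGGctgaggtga
Kif11 (chr19:37376132-37376381, plus strand): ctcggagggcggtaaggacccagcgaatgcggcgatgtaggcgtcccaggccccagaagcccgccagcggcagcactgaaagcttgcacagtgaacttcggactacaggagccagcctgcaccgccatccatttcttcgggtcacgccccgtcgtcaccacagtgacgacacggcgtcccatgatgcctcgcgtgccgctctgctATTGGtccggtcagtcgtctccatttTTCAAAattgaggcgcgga
Cdk1 (chr10:69352913-69353162, minus strand): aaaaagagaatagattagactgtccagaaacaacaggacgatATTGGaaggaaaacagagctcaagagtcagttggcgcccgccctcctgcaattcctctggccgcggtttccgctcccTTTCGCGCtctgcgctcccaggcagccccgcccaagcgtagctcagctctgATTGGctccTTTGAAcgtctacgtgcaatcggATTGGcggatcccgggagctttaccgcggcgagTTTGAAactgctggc
Mki67 (chr7:135716451-135716629, minus strand): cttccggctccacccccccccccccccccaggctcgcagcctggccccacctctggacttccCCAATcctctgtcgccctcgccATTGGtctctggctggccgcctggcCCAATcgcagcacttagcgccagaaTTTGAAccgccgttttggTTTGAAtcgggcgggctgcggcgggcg
Top2a (chr11:99024200-99024439, minus strand): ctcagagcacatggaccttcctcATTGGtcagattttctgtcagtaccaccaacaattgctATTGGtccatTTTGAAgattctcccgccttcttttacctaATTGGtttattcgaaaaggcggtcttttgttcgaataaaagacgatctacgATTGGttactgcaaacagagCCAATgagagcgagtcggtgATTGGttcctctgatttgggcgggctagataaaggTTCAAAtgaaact
The Mcm6 promoter held 3 E2F matches, beginning 110, 106 and 47 bases before the start, of which the first pair overlap on opposite strands. The Cdk1 promoter was the sole mitotic promoter with an E2F match, beginning 131 bases before the start, beside 2 CHR and 3 CCAAT matches. Top2a held 2 CHR and 6 CCAAT matches, the CHR nearest to its start beginning 23 bases before it. Mki67 held 2 CHR matches that began 116 and 98 bases before the start, and 3 CCAAT matches. Mcm2, Rrm2 and Kif11 held 1 CCAAT match each, and Mcm2 and Kif11 also 1 CHR match.

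Array medians lay between 139.3 and 145.4 on the intensity scale, and arrays of different groups correlated at 0.9892 to 0.996 over genes. The B cell list had 9 of 10 markers measured, with a summed intensity of 72212 to 76388 in wild-type, 68901 to 74692 in floxed and 66286 to 69578 in delta arrays. Its largest difference in delta against wild-type was that of Cd79a, the gene also named mb1, at -0.48, beside a list median of -0.074. Cd79a read 13.29 to 13.39 in wild-type and 12.82 to 12.89 in delta arrays, and the delta mice carry the mb1-Cre allele. The sum thus does not measure B cell purity by itself. Xist and Y-linked genes gave a male pattern in 0 of 3 wild-type, 3 of 3 floxed and 1 of 4 delta arrays (delta 1), so sex and genotype cannot be told apart in floxed against wild-type. Markers of other cells differed between arrays. The T cell list (14 of 16 measured) summed to 4246 to 4629 in wild-type, 4522 to 5212 in floxed and 4185 to 5122 in delta arrays. The NK cell list (11 of 11) summed to 1051 to 1141, 1441 to 2711 and 994 to 1557. The erythroid list (10 of 15) summed to 2201 to 3207, 3243 to 4135 and 1835 to 3141. The myeloid list (12 of 12) summed to 1552 to 1699, 2121 to 2538 and 1808 to 3054, and the plasma cell list (8 of 8) to 5629 to 6430, 6642 to 7047 and 6394 to 7106. Markers of pro-B and pre-B cells (11 of 11) summed to 5968 to 6849, 5514 to 5836 and 5624 to 6219, and the germinal centre B cell list (8 of 9) to 1251 to 1831, 1452 to 1841 and 1541 to 1656. Erythroid precursors and plasmablasts are themselves dividing cells, and the part of these cells in the member values was not tested. The markers within these lists went different ways in floxed against wild-type. Of 10 erythroid markers 7 lay above 0, from -0.17 for Tfrc to 1.29 for Slc4a1, and the groups overlapped in Klf1, Gata1 and Epor. Of 8 plasma cell markers 6 lay above 0, from -0.51 for Sdc1 to 1.64 for Jchain. Array intensities have no true zero, so no marker is at 0. Sums of intensity weigh the brightest genes most. Cd2, the brightest T cell marker, read 11.40 to 11.83 log2 and was at -0.035 in floxed against wild-type. Ebf1 was the brightest pro-B and pre-B marker, at 12.15 to 12.39, and Mzb1, Xbp1 and Irf4 were the brightest plasma cell markers. The sums of these lists thus follow these genes more than the others. By mean log2, the T cell list stood 0.64, 0.008 and 0.45 from the wild-type mean in floxed 1, 2 and 3.

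All member values below are log2 of the RMA intensity of 1 probe set per gene. Values are given in the order of the replicate numbers, 1 to 3 for wild-type and floxed and 1 to 4 for delta. Levels are not compared between genes, since each probe set has its own response. Whether a probe set lay above background was not tested, and several mitotic members were dim. In floxed arrays Ccna2, Cdk1, Kif11 and Nusap1 averaged 117, 113, 86 and 106 on the intensity scale, below every array median (139.3 to 145.4). Mki67 and Top2a averaged 262 and 159 there, and 168 and 122 in wild-type arrays. The myeloid markers Mpo and Elane read 6.27 to 6.87 and 6.63 to 6.85 log2. Differences are on the log2 scale with limma's standard error (SE) and 95% confidence interval (CI), and a gene passed at a Benjamini-Hochberg adjusted p under 0.05 over 19937 genes. In bulk samples a smaller share of dividing cells and less RNA per cell cannot be told apart.

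No member passed the test in any comparison. Limma called 0 of 46 members in floxed against wild-type, where 0.552% of all genes (110) passed, 0 of 46 in delta against wild-type, where 0.0752% (15) passed, and 0 of 46 in delta against floxed, where 0.00502% (1 gene) passed. At an unadjusted p under 0.05, floxed against wild-type held 1 S-phase and 5 mitotic members on the higher side (6.14% of all genes) and 1 mitotic member, Ncaph, on the lower side (6.63%), where 12.8% of all genes lay on either side. Delta against wild-type held 1 S-phase member on the higher side (3.46%), which was Pcna by its brighter probe set. It held 3 mitotic members on the lower side (4.44%), with 7.89% of genes on either side. Delta against floxed held 2 S-phase and 7 mitotic members, all on the lower side (3.2%, and 6.42% on either side). The 95% CI lay within 1 log2 unit either way for 21 of 21 S-phase and 24 of 25 mitotic members in floxed against wild-type, with Mki67 as the exception. It did so for 19593 of all 19937 genes. In delta against floxed it did so for 21 of 21, 24 of 25 and 19784 genes, and in delta against wild-type for 21 of 21, 25 of 25 and 19703.

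**Figure D1:**
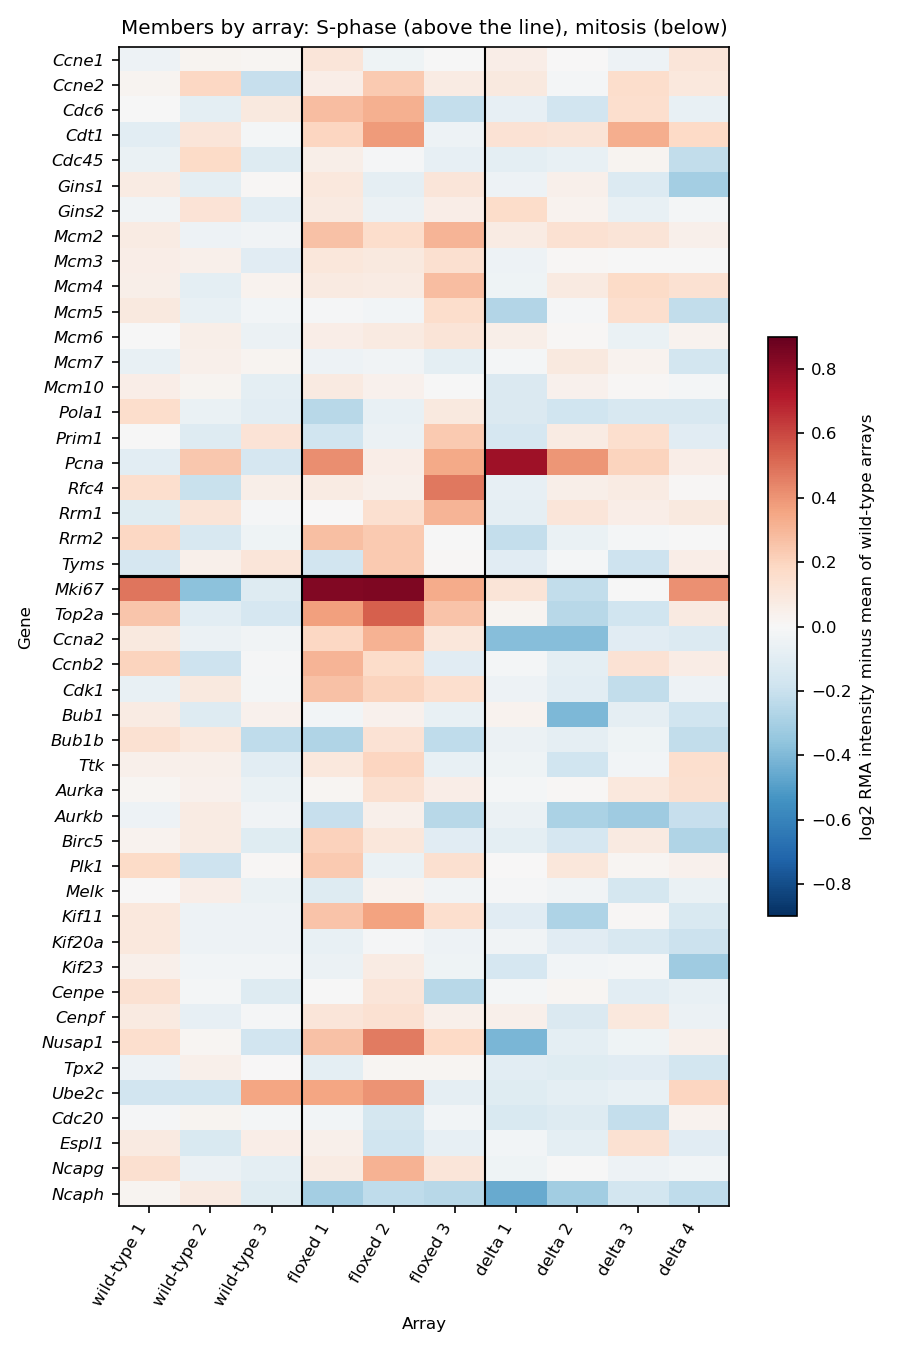
Log2 RMA intensity of each member in each of the 10 arrays, minus the mean of the 3 wild-type arrays (colour scale), with S-phase members above the line and mitotic members below it. Mki67 is the darkest cell in floxed 1 and floxed 2, at 8.17 and 8.19, and Pcna that in delta 1, at 12.43.

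Among the S-phase members, floxed arrays lay slightly above wild-type arrays. The median difference in floxed against wild-type was 0.087 with 18 of 21 members above 0, against -0.024 over all genes, 41.9% of which lay above 0. In delta against wild-type the median was -0.007 with 10 of 21 above 0, against -0.014 over all genes, 43.6% of which lay above 0, and with an array left out it was -0.0132 to 0.0085. Between delta and floxed it was -0.078 with 5 of 21 above 0, against 0.005 over all genes, 52.1% of which lay above 0. The comparisons share arrays, so their values are not independent of each other.

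The MCM genes encode the subunits of the replicative helicase. Mcm2 read 9.01, 8.89 and 8.91 in wild-type, 9.20, 9.10 and 9.25 in floxed and 9.01, 9.07, 9.06 and 8.98 in delta arrays. All 3 floxed arrays lay above all other arrays, while wild-type and delta overlapped. The Mcm2 difference was 0.24 (SE 0.064, 95% CI 0.10 to 0.38, adjusted p = 0.122) in floxed against wild-type (0.161 when floxed 2 stood alone for its group) and -0.15 (SE 0.060, 95% CI -0.28 to -0.019, adjusted p = 0.744) in delta against floxed. Mcm3 read 8.27, 8.25 and 8.11 in wild-type, 8.31, 8.30 and 8.36 in floxed and 8.16, 8.22, 8.21 and 8.21 in delta arrays, with floxed above both other groups in every array. Its difference was 0.11 (adjusted p = 0.479) in floxed against wild-type and -0.12 (adjusted p = 0.777) in delta against floxed. Mcm4 read 9.19, 9.05 and 9.17 in wild-type, 9.22, 9.21 and 9.42 in floxed and 9.10, 9.22, 9.31 and 9.28 in delta arrays. Its floxed arrays lay above all wild-type arrays and overlapped the delta arrays, at 0.15 (adjusted p = 0.482) in floxed against wild-type. Mcm5 read 9.44, 9.29 and 9.33 in wild-type, 9.35, 9.33 and 9.51 in floxed and 9.09, 9.34, 9.51 and 9.13 in delta arrays, and its groups overlapped. Mcm6 had group means of 8.98 ± 0.05, 9.07 ± 0.03 and 8.99 ± 0.05 (SD, n = 3, 3 and 4) in wild-type, floxed and delta arrays, with floxed above both other groups in every array and a difference of 0.087 (adjusted p = 0.577) in floxed against wild-type. Floxed arrays thus lay above all wild-type arrays in 4 of the 21 S-phase members (Mcm2, Mcm3, Mcm4 and Mcm6), where 7.6% of all genes did. Among 41 other replication genes, described below, 3 did (7.32%). Mcm7, the remaining subunit of the ring, was at 8.81 ± 0.06, 8.76 ± 0.03 and 8.80 ± 0.11 in the same order, with -0.057 (adjusted p = 0.796) in floxed against wild-type. Mcm10, which helps to activate the helicase, was at 6.77 ± 0.08, 6.80 ± 0.04 and 6.74 ± 0.07.

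Of the licensing and initiation factors, Cdc6 and Cdt1 load the helicase. Cdc6 read 6.46, 6.37 and 6.55 in wild-type, 6.73, 6.78 and 6.24 in floxed and 6.39, 6.29, 6.61 and 6.39 in delta arrays. The floxed arrays of Cdc6 were split, with floxed 1 and 2 the highest of all arrays and floxed 3 the lowest. Cdt1 read 9.40, 9.60 and 9.48 in wild-type, 9.69, 9.88 and 9.44 in floxed and 9.63, 9.61, 9.82 and 9.68 in delta arrays. Every delta array lay above every wild-type array in Cdt1, at 0.19 (adjusted p = 0.698), which was so for 3.75% of all genes. The margin was narrow, with delta 2 at 9.610 and wild-type 2 at 9.604. Gins1, a subunit of the GINS complex of the helicase, read 6.59, 6.42 and 6.53 in wild-type, 6.60, 6.43 and 6.62 in floxed and 6.46, 6.56, 6.39 and 6.20 in delta arrays. Delta 4 was its lowest array, and the difference in delta against floxed was -0.15 (adjusted p = 0.844). Gins2 had group means of 8.06 ± 0.11, 8.09 ± 0.07 and 8.09 ± 0.10 and Cdc45, their partner in the active helicase, of 7.18 ± 0.15, 7.17 ± 0.06 and 7.10 ± 0.10 (SD, n = 3, 3 and 4).

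The groups overlapped in both cyclin E genes. Ccne1 read 8.21, 8.28 and 8.27 in wild-type, 8.36, 8.21 and 8.25 in floxed and 8.31, 8.25, 8.21 and 8.36 in delta arrays, a range of 1.11-fold from the lowest to the highest array. Ccne2 read 6.18, 6.34 and 5.94 in wild-type, 6.21, 6.39 and 6.23 in floxed and 6.24, 6.14, 6.31 and 6.25 in delta arrays, and wild-type 3 was its lowest and floxed 2 its highest array.

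Of the replication fork genes, Pola1, the catalytic subunit of polymerase alpha, read 8.18, 7.97 and 7.93 in wild-type, 7.77, 7.96 and 8.11 in floxed and 7.89, 7.84, 7.88 and 7.88 in delta arrays. Its delta arrays lay below all wild-type arrays, at -0.15 (adjusted p = 0.737), as did 5.5% of all genes. Prim1, a primase subunit, had group means of 7.74 ± 0.12, 7.74 ± 0.21 and 7.73 ± 0.14, and Rfc4, a subunit of the clamp loader, of 8.94 ± 0.18, 9.14 ± 0.24 and 8.96 ± 0.06 (SD, n = 3, 3 and 4). Pcna, the sliding clamp, read 11.57, 11.91 and 11.51 in wild-type, 12.08, 11.72 and 12.01 in floxed and 12.43, 12.06, 11.87 and 11.72 in delta arrays. Its highest array was delta 1, and the groups overlapped. The Pcna difference was 0.36 (SE 0.16, 95% CI 0.009 to 0.70, adjusted p = 0.622) in delta against wild-type and 0.28 (adjusted p = 0.537) in floxed against wild-type. A second Pcna probe set with the same transcript accessions read 11.28, 11.33 and 11.63 in wild-type, 11.64, 11.16 and 11.53 in floxed and 11.72, 11.54, 11.44 and 11.49 in delta arrays, and gave 0.13 and 0.030 in those comparisons. With the sex pattern as a covariate, a fit in which the male floxed arrays are set against the other groups only through delta 1, Pcna was at -0.27 (adjusted p = 0.845) in floxed against wild-type, 0.22 in delta against wild-type, as without delta 1, and 0.49 (adjusted p = 0.780) in delta against floxed. In floxed against wild-type it was at 0.5599 with the erythroid mean as a covariate and at 0.0601 when floxed 2 stood alone for its group. RefSeq lists the Pcna pseudogenes Pcna-ps1 (chromosome X) and Pcna-ps2 (chromosome 19), while Pcna lies on chromosome 2. In the order of probe set numbers, the first Pcna set falls between Kif20a (chromosome 18) and Kif11 (chromosome 19). The second falls between Bub1 and Aurka, both on chromosome 2. Shared signal with near-identical copies was not tested, and the Pcna values are uncertain. With every probe set in the fit, the unadjusted limma p in delta against wild-type was 0.046 for the first and 0.304 for the second.

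The genes of nucleotide supply include both subunits of ribonucleotide reductase. Rrm2, its cell cycle regulated subunit, read 7.31, 6.98 and 7.08 in wild-type, 7.40, 7.36 and 7.12 in floxed and 6.91, 7.06, 7.11 and 7.12 in delta arrays. Floxed arrays lay above all delta arrays but overlapped wild-type, where wild-type 1 was high. The Rrm2 difference was -0.24 (SE 0.10, 95% CI -0.45 to -0.034, adjusted p = 0.740) in delta against floxed and 0.17 (adjusted p = 0.524) in floxed against wild-type, and the first was -0.3854 with the sex covariate and -0.1258 with the erythroid mean. Rrm1, the other subunit, had group means of 9.57 ± 0.12, 9.72 ± 0.15 and 9.62 ± 0.08 (SD, n = 3, 3 and 4) and 0.15 (adjusted p = 0.520) in floxed against wild-type. Tyms, thymidylate synthase, read 7.07, 7.27 and 7.33 in wild-type, 7.05, 7.46 and 7.24 in floxed and 7.13, 7.21, 7.04 and 7.29 in delta arrays, with overlapping groups.

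Among the mitotic members the delta arrays were the lowest on average. The median difference was 0.073 in floxed against wild-type with 14 of 25 members above 0, -0.099 in delta against wild-type with 4 of 25 above 0, and -0.102 in delta against floxed with 3 of 25 above 0. Over all genes these medians were -0.024, -0.014 and 0.005. Averaged over the 25 mitotic members, the floxed arrays stood 0.099, 0.16 and -0.002 from the wild-type mean and the delta arrays -0.083, -0.13, -0.058 and -0.050, while wild-type 1, 2 and 3 stood at 0.081, -0.038 and -0.043. The floxed mean thus rested on floxed 1 and floxed 2, and when floxed 3 stood for the group by itself, an alternative chosen after the data were seen, the median in floxed against wild-type was -0.0295. With an array left out that median was 0.0263 (without wild-type 3) to 0.0867, at 0.0285 without wild-type 2, 0.0334 without floxed 1 and 0.0389 without floxed 2. The median of delta against wild-type ranged from -0.1148 to -0.0639 in the same way. For the 21 S-phase members the floxed arrays stood closer together, at 0.075, 0.083 and 0.11. The T cell list stood at 0.64, 0.008 and 0.45 in the same 3 floxed arrays and the erythroid list at 0.55, 0.40 and 0.23, and their part in the member values was not tested.

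**Figure D2:**
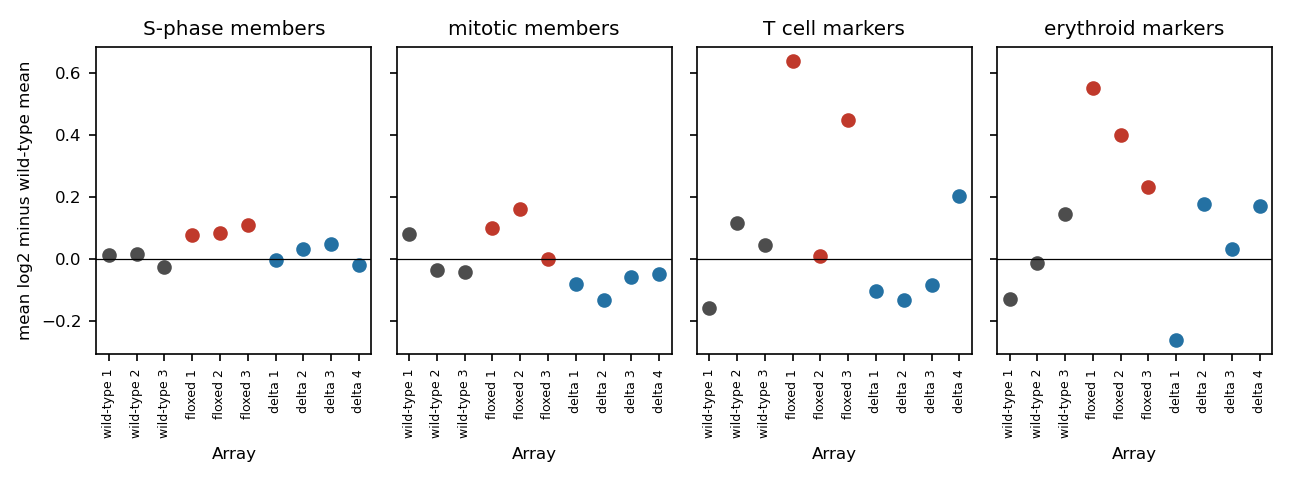
Mean log2 intensity of the 21 S-phase members, the 25 mitotic members, the T cell markers and the erythroid markers in each array, minus the wild-type mean, with 1 point per array. Mitotic members in floxed 3 lie at -0.002, beside 0.099 and 0.16 in floxed 1 and 2, while T cell markers are lowest among floxed arrays in floxed 2, at 0.008.

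Mki67 and Top2a are common markers of dividing cells. Mki67, which encodes the Ki-67 protein that coats mitotic chromosomes, read 7.83, 6.98 and 7.23 in wild-type, 8.17, 8.19 and 7.68 in floxed and 7.46, 7.12, 7.34 and 7.76 in delta arrays. Floxed 1 and floxed 2 were the highest arrays, wild-type 2 was the lowest, and wild-type 1 lay above floxed 3, so the groups overlapped. The range from the lowest to the highest array was 2.31-fold. Floxed stood at 1.59 times wild-type, a difference of 0.67 (SE 0.22, 95% CI 0.19 to 1.15, adjusted p = 0.216), and the difference in delta against floxed was -0.59 (SE 0.20, 95% CI -1.04 to -0.15, adjusted p = 0.721). Its SD within groups was 0.33, which 2.01% of genes exceeded. Top2a, the topoisomerase that untangles sister chromatids, read 7.17, 6.82 and 6.76 in wild-type, 7.29, 7.46 and 7.18 in floxed and 6.94, 6.67, 6.74 and 6.998 in delta arrays. All floxed arrays lay above all others, though floxed 3 exceeded wild-type 1 by little. The Top2a difference was 0.39 (SE 0.12, 95% CI 0.12 to 0.66, adjusted p = 0.198) in floxed against wild-type and -0.47 (SE 0.11, 95% CI -0.72 to -0.22, adjusted p = 0.583) in delta against floxed. A second, dim Top2a probe set, annotated to a single cDNA, read 4.72, 5.57 and 4.26 in wild-type, 4.13, 4.46 and 4.34 in floxed and 4.12, 4.65, 3.86 and 4.30 in delta arrays. It gave -0.54 in floxed against wild-type and -0.083 in delta against floxed, so the Top2a probe sets disagree in sign in the first comparison. With the sex covariate the first probe set was at 0.2502 in floxed against wild-type.

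The cyclins and Cdk1 drive entry into mitosis. Ccna2, cyclin A2, read 6.76, 6.62 and 6.64 in wild-type, 6.86, 6.98 and 6.77 in floxed and 6.29, 6.29, 6.57 and 6.54 in delta arrays. Its floxed arrays lay above all wild-type arrays and its delta arrays below them. The Ccna2 difference was -0.45 (SE 0.089, 95% CI -0.64 to -0.25, adjusted p = 0.469) in delta against floxed, the smallest unadjusted p of any member, -0.25 (adjusted p = 0.492) in delta against wild-type and 0.20 (adjusted p = 0.407) in floxed against wild-type. Delta 1 and delta 2 were its lowest arrays. Cdk1 read 6.55, 6.70 and 6.59 in wild-type, 6.88, 6.81 and 6.76 in floxed and 6.57, 6.52, 6.39 and 6.57 in delta arrays, with floxed above all other arrays. Its difference was -0.31 (SE 0.066, 95% CI -0.45 to -0.16, adjusted p = 0.528) in delta against floxed and 0.20 (adjusted p = 0.242) in floxed against wild-type. In floxed against wild-type the sex covariate gave 0.3823 for Ccna2 and 0.1324 for Cdk1, and Ccna2 was at 0.1318 with the erythroid mean and 0.314 when floxed 2 stood alone for its group. Ccnb2, cyclin B2, read 7.82, 7.43 and 7.61 in wild-type, 7.92, 7.79 and 7.52 in floxed and 7.60, 7.53, 7.75 and 7.68 in delta arrays, and its groups overlapped.

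Kif11, the kinesin that separates spindle poles, read 6.26, 6.11 and 6.11 in wild-type, 6.41, 6.53 and 6.31 in floxed and 6.06, 5.89, 6.17 and 6.02 in delta arrays. The floxed arrays were above all others, with a difference of 0.26 (SE 0.085, 95% CI 0.070 to 0.44, adjusted p = 0.223) in floxed against wild-type and -0.38 (SE 0.079, 95% CI -0.56 to -0.21, adjusted p = 0.528) in delta against floxed. Nusap1, a spindle-associated protein named after its values were seen, read 6.57, 6.43 and 6.24 in wild-type, 6.68, 6.88 and 6.59 in floxed and 6.003, 6.32, 6.37 and 6.46 in delta arrays. Floxed again lay above all other arrays, with 0.30 (adjusted p = 0.330) in floxed against wild-type and -0.43 (adjusted p = 0.641) in delta against floxed, and delta 1 was its lowest array. With the sex covariate, which rests on delta 1, Nusap1 was at 0.68 (adjusted p = 0.429) and -0.71 (adjusted p = 0.281) in the same comparisons. Tpx2, which activates Aurora A on the spindle, read 6.62, 6.71 and 6.67 in wild-type, 6.58, 6.69 and 6.69 in floxed and 6.58, 6.56, 6.57 and 6.51 in delta arrays. The delta arrays of Tpx2 lay below all wild-type and floxed arrays, at -0.12 (adjusted p = 0.657) in delta against wild-type. Kif20a and Kif23, kinesins of the central spindle, had group means of 6.36 ± 0.08, 6.32 ± 0.03 and 6.25 ± 0.07 and of 7.43 ± 0.04, 7.42 ± 0.07 and 7.30 ± 0.14 (SD, n = 3, 3 and 4) in wild-type, floxed and delta arrays. The kinetochore genes Cenpe and Cenpf were at 5.71 ± 0.13, 5.66 ± 0.18 and 5.67 ± 0.05 and at 5.92 ± 0.08, 6.01 ± 0.04 and 5.91 ± 0.10.

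**Figure D3:**
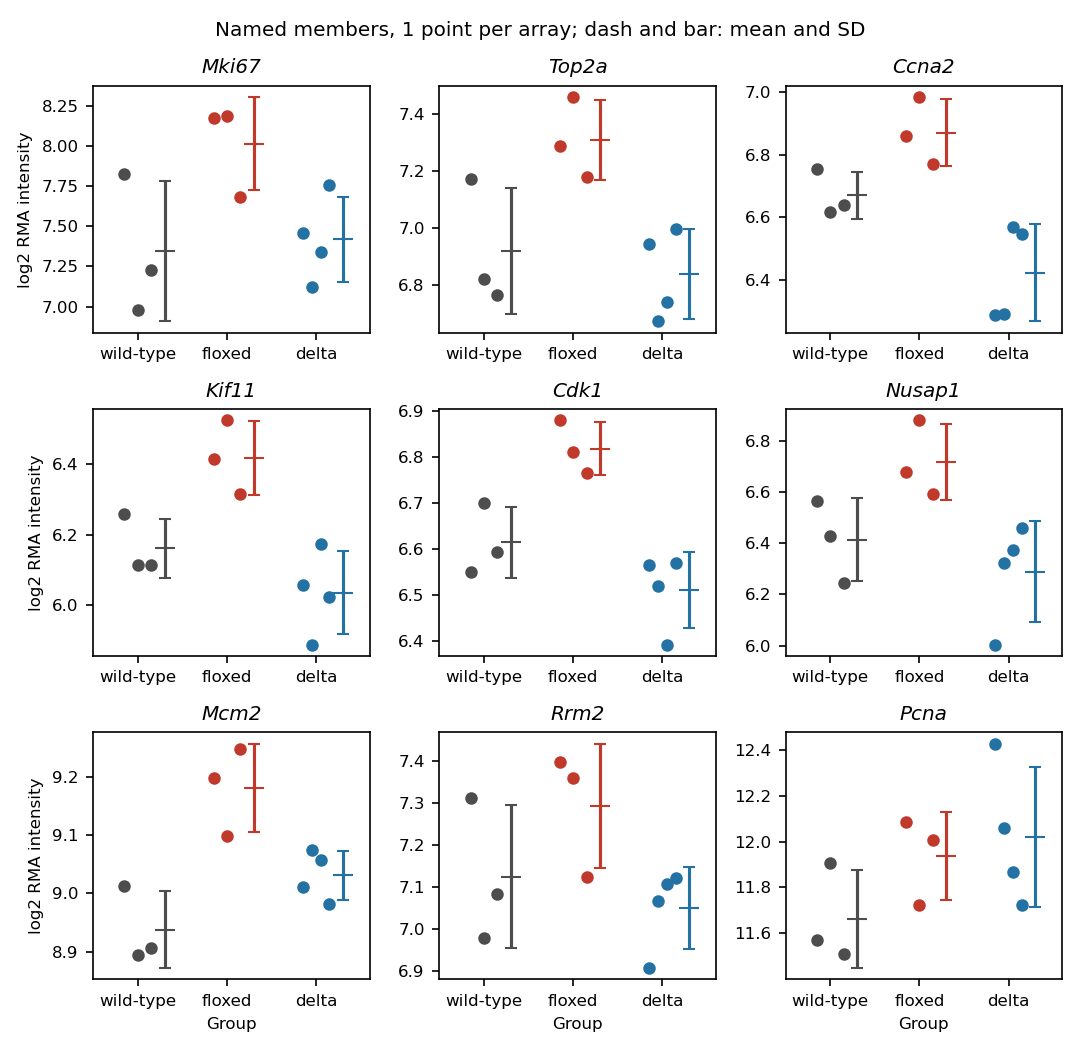
Log2 RMA intensity of 9 members, 1 point per array, with the mean (dash) and SD (bar) of the 3 wild-type, 3 floxed and 4 delta arrays. For Mcm2, Top2a, Ccna2, Kif11, Cdk1 and Nusap1 every floxed point lies above every wild-type and delta point, while in Mki67 wild-type 1, at 7.83, lies above floxed 3, at 7.68.

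The condensin and Aurora B complex genes did not share 1 order of groups. In Ncaph and Aurkb the wild-type mean was the highest and the delta mean the lowest. In Ncapg and Birc5 the floxed mean was the highest and the delta mean the lowest, as in Top2a, Ccna2, Cdk1 and Kif11. Ncaph, a condensin subunit, read 7.36, 7.42 and 7.22 in wild-type, 7.03, 7.11 and 7.08 in floxed and 6.88, 7.02, 7.17 and 7.10 in delta arrays. Its wild-type arrays lay above all floxed and all delta arrays, which overlapped each other. The Ncaph difference was -0.26 (SE 0.082, 95% CI -0.44 to -0.080, adjusted p = 0.201) in floxed against wild-type and -0.29 (SE 0.077, 95% CI -0.46 to -0.12, adjusted p = 0.289) in delta against wild-type. With the sex covariate Ncaph was at -0.040 (SE 0.12, adjusted p = 0.964) in floxed against wild-type, -0.24 in delta against wild-type and -0.20 in delta against floxed. Ncapg, another condensin subunit, had group means of 5.87 ± 0.13, 6.04 ± 0.13 and 5.84 ± 0.02 (SD, n = 3, 3 and 4), and its delta arrays lay below all floxed arrays at -0.20 (adjusted p = 0.736). Aurkb, the kinase of the chromosomal passenger complex, read 8.33, 8.45 and 8.35 in wild-type, 8.17, 8.42 and 8.13 in floxed and 8.33, 8.09, 8.06 and 8.17 in delta arrays. Its delta arrays lay below all wild-type arrays, at -0.22 (adjusted p = 0.556). Birc5, survivin of the same complex, read 6.31, 6.35 and 6.16 in wild-type, 6.48, 6.37 and 6.17 in floxed and 6.18, 6.12, 6.35 and 5.999 in delta arrays, with overlapping groups.

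The remaining mitotic members had no unadjusted p under 0.05 in any comparison. The checkpoint genes Bub1, Bub1b and Ttk had group means of 5.79 ± 0.10, 5.77 ± 0.05 and 5.63 ± 0.19, of 6.21 ± 0.20, 6.08 ± 0.22 and 6.11 ± 0.08 and of 5.75 ± 0.08, 5.82 ± 0.13 and 5.72 ± 0.14 (SD, n = 3, 3 and 4). The kinase genes Aurka, Plk1 and Melk were at 7.43 ± 0.05, 7.51 ± 0.06 and 7.49 ± 0.08, at 6.86 ± 0.18, 6.97 ± 0.15 and 6.90 ± 0.04 and at 6.31 ± 0.06, 6.27 ± 0.08 and 6.25 ± 0.07. The genes of mitotic exit Ube2c and Cdc20, which act with the anaphase-promoting complex, and Espl1, separase, were at 7.11 ± 0.30, 7.34 ± 0.27 and 7.09 ± 0.14, at 7.43 ± 0.02, 7.36 ± 0.08 and 7.32 ± 0.10 and at 6.57 ± 0.12, 6.51 ± 0.11 and 6.56 ± 0.11. The floxed arrays of Cdc20 lay below all its wild-type arrays, at -0.071 (adjusted p = 0.736).

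By groups that did not overlap, floxed lay above wild-type in 5 of 25 mitotic members (Top2a, Ccna2, Cdk1, Kif11 and Nusap1; 7.6% of all genes) and below in 2 (Cdc20 and Ncaph; 9.13%). Delta lay below wild-type in 4 of 25 (Ccna2, Aurkb, Tpx2 and Ncaph; 5.5%). Delta lay below floxed in 7 of 25 mitotic members (Top2a, Ccna2, Cdk1, Kif11, Nusap1, Tpx2 and Ncapg) and in 4 of 21 S-phase members (Mcm2, Mcm3, Mcm6 and Rrm2), where 3.61% of all genes did. Some separations were narrow. Tpx2 read 6.576 in delta 1 and 6.583 in floxed 1, and Aurkb 8.325 in delta 1 and 8.333 in wild-type 1. Cdc20 read 7.405 in floxed 1 and 7.416 in wild-type 3, and Mcm6 9.044 in floxed 1 and 9.036 in delta 1. The counts with floxed arrays share the same 3 floxed arrays. The count of delta against wild-type uses none of them, but shares its wild-type and its delta arrays with the other counts. The counts are thus not independent of each other, and no member was called.

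**Figure D4:**
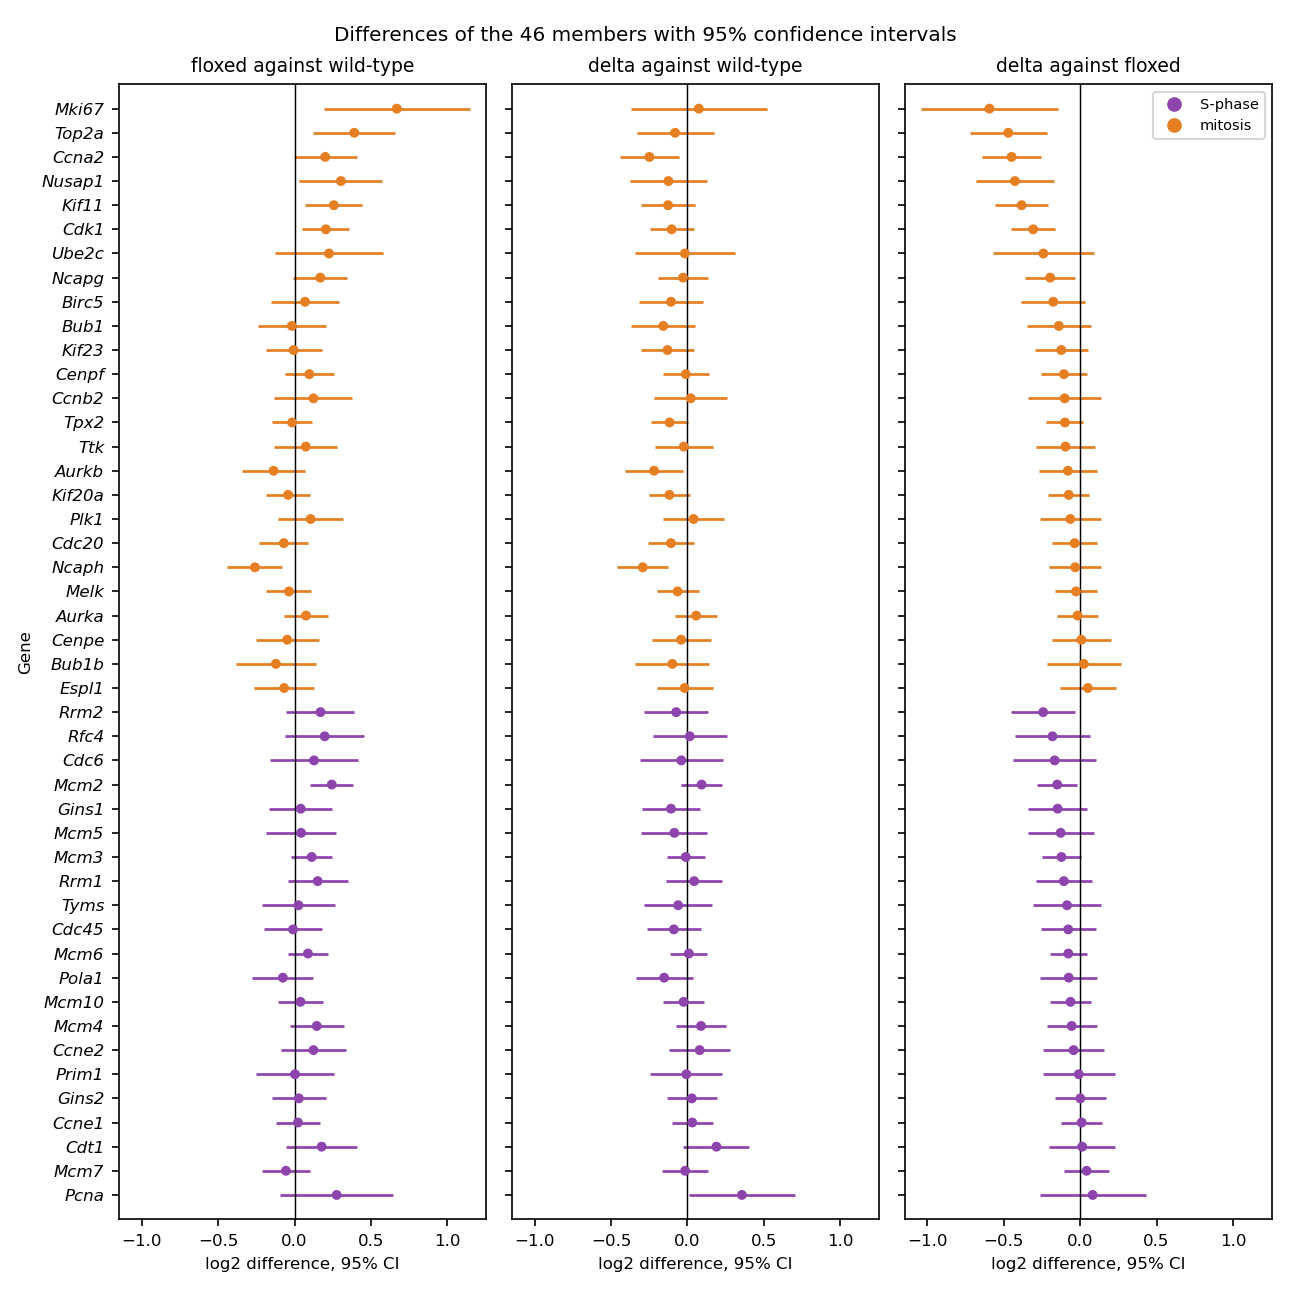
Log2 difference of each member with its 95% CI, from left to right for floxed over wild-type, delta over wild-type and delta over floxed arrays, in purple for S-phase and orange for mitotic members, ordered within each class by delta against floxed. In floxed against wild-type Mki67 is the farthest from 0, at 0.67 with a CI of 0.19 to 1.15, and most intervals of S-phase members cross 0.

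The members' variation between arrays was set against Mki67, a reference gene chosen after its values were seen, as was the minimum Pearson r of 0.7. Over the 10 arrays, r with Mki67 reached 0.7 in 7 of 24 other mitotic members and 1 of 21 S-phase members, against 1.36% of 19936 genes. Top2a had the highest r at 0.93 (permutation p = 0.00014, adjusted p = 0.310, Spearman rho 0.88 with permutation p = 0.00154, adjusted p = 0.882). Rrm2, the S-phase member, had r = 0.84 (permutation p = 0.00292, adjusted p = 0.657, rho 0.85 with permutation p = 0.00254, adjusted p = 0.882). The others were Ccnb2 at 0.80, Kif11 at 0.78, Ncapg at 0.77, Cenpf at 0.74, Nusap1 at 0.71 and Ccna2 at 0.70. Mcm7 was the lowest member at -0.65, and the median r was 0.44 over mitotic members, 0.13 over S-phase members and -0.043 over all genes. None of 19936 genes passed after adjustment, by Pearson (smallest adjusted p = 0.199) or Spearman (smallest adjusted p = 0.0997), in 100000 permutations, although 1295 and 1032 genes had an unadjusted permutation p under 0.05.

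The arrays farthest from the median of Mki67 were floxed 1 and floxed 2. Without them 1 mitotic member (Top2a, r = 0.85) and 0 S-phase members reached 0.7, against 1.60% of all genes. Leaving out the extreme arrays of the reference gene narrows its range, which tends to lower r. This count therefore cannot show where the relation rests. With the group means removed, 2 mitotic members (Top2a at 0.89 and Ccnb2 at 0.84) and 1 S-phase member (Rrm2 at 0.77) reached 0.7, against 1.97% of all genes. Without floxed 1 alone the mitotic count was 4 (1.64% of all genes), and without floxed 2 alone it was 3 (1.39%). Over the same arrays the means of the marker lists had an r with Mki67 of 0.79 for plasma cell, 0.62 for myeloid, 0.60 for NK cell, 0.55 for erythroid, 0.47 for germinal centre B cell and 0.44 for T cell markers, against -0.046 for B cell and -0.63 for pro-B and pre-B cell markers. The list means rest on few genes. In floxed against wild-type the means of the plasma cell, myeloid and erythroid lists were 0.23, 0.31 and 0.39, beside medians of 0.13, 0.052 and 0.11. The myeloid markers ran from -0.26 for Cd14 to 1.91 for Adgre1, with 7 of 12 above 0. The part of these lists in the relation was not tested. Mitotic members with a CHR match in the promoter had a median r of 0.67 (8 genes, -0.033 for Espl1 to 0.93 for Top2a) and those without 0.39 (12 genes, -0.26 for Ncaph to 0.74 for Cenpf), given as a description across genes that share the same 10 arrays.

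**Figure D5:**
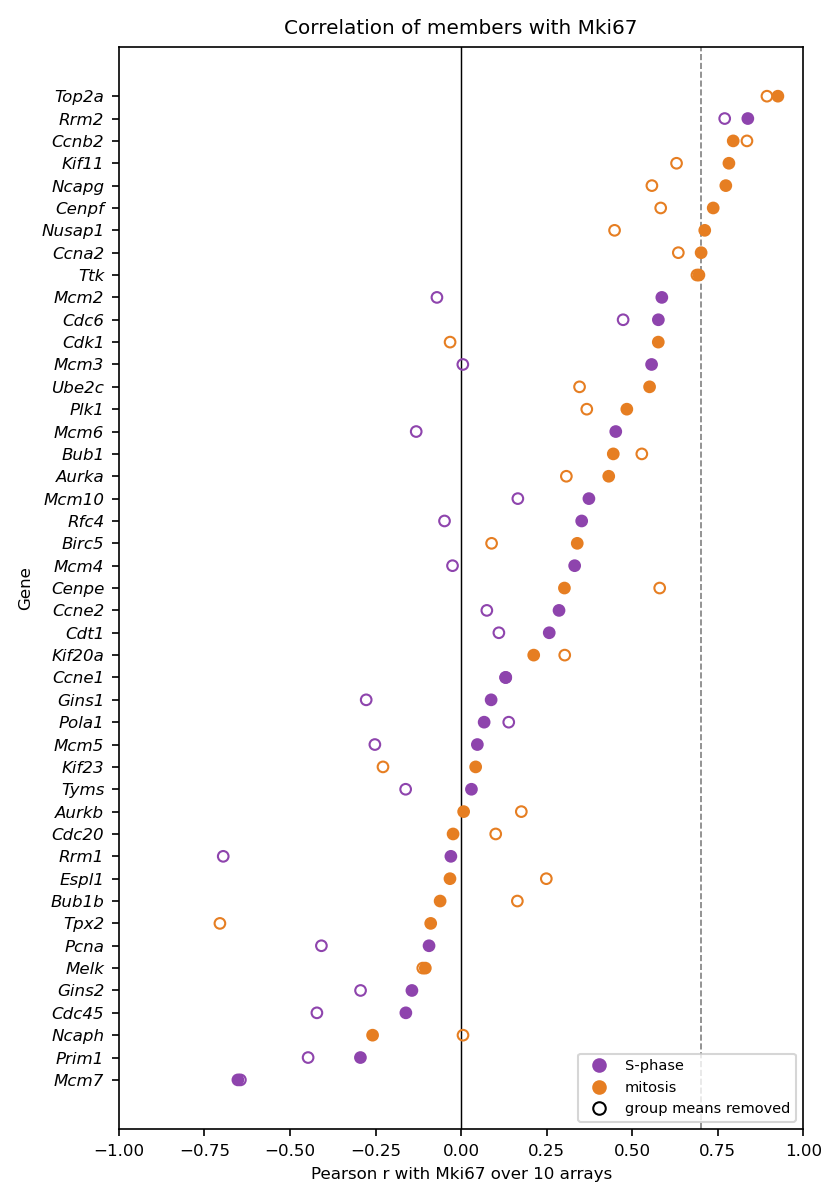
Pearson r of each of the other 45 members with Mki67 over the 10 arrays (filled points) and after removing the group means (open points), in purple for S-phase and orange for mitotic members, with a dashed line at 0.7. Top2a, Rrm2 and Ccnb2 stay right of the line on both measures, while Mcm2 goes from 0.59 to -0.071 and Cdk1 from 0.58 to -0.032.

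Other genes of the same pathways gave 1 call. Of 41 other replication genes, 0 passed in each comparison, with medians of -0.012 in floxed against wild-type, -0.045 in delta against wild-type and -0.028 in delta against floxed. Of 50 other mitosis genes, 1 passed in floxed against wild-type (higher) and 0 in the other comparisons, with medians of 0.006, -0.035 and -0.051. Of 21 cell cycle transcription regulators, 0 passed in each, with medians of -0.039, -0.041 and -0.029. In floxed against wild-type 20 of the 41 other replication genes (48.8%) lay above 0. By groups that did not overlap, floxed lay above wild-type in 3 other replication and 4 other mitosis genes (7.6% of all genes) and below in 1 and 3 (9.13%). Delta lay below floxed in 3 and 8 (3.61%) and above in 0 and 3. The gene that passed was Racgap1, a subunit of the centralspindlin complex that works with Kif23 in cytokinesis, which rose in floxed against wild-type by 0.70 (SE 0.13, adjusted p = 0.0395). It read 7.44, 7.13 and 7.29 in wild-type, 7.99, 8.04 and 7.92 in floxed and 7.57, 7.33, 7.62 and 7.91 in delta arrays, with every floxed array above all others. The Racgap1 call ended with sex as a covariate (0.75, adjusted p = 0.552), with the T cell mean (0.66, adjusted p = 0.208) and with the erythroid mean (0.68, adjusted p = 0.365). It also ended without any single wild-type or floxed array and without delta 1 or delta 3, at adjusted p of 0.0513 to 0.145, and held without delta 2 (0.0198) and without delta 4 (0.00665).

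In the other lists the smallest p-values were given as values. Pole, polymerase epsilon, was at 0.31 (SE 0.092, adjusted p = 0.166) and Cdc25b, a phosphatase that activates Cdk1, at -0.35 (SE 0.086, adjusted p = 0.1) in floxed against wild-type. Foxm1, an activator of mitotic genes through CHR elements, was at -0.24 (SE 0.078, adjusted p = 0.216) and Tfdp1, a partner of E2F factors, at 0.27 (SE 0.094, adjusted p = 0.254) in the same comparison. Chaf1b, a chromatin assembly factor subunit, was at -0.33 (SE 0.087, adjusted p = 0.293) and Mad2l1, of the spindle checkpoint, at -0.22 (SE 0.069, adjusted p = 0.404) in delta against wild-type. In delta against floxed E2f2 was at -0.34 (SE 0.093, adjusted p = 0.644) and Nuf2, of the kinetochore, at -0.24 (SE 0.064, adjusted p = 0.624). Rfc2 was at 0.21 (SE 0.068, adjusted p = 0.209) in floxed against wild-type, Ticrr at -0.18 (SE 0.056, adjusted p = 0.376) and Ckap2 at -0.22 (SE 0.071, adjusted p = 0.414) in delta against wild-type, and Uhrf1 at -0.27 (SE 0.092, adjusted p = 0.721) and Prc1 at -0.29 (SE 0.091, adjusted p = 0.681) in delta against floxed. None of these genes passed the test.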

How the data were processed

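The authors deposited 1 intensity per probe set and array, made with RMA per the submitters' processing notes. RMA corrects background, normalizes between arrays and summarises probes, and shared normalization can shrink small differences. For its version and genome build nothing is given in the sources used here. The values are linear, from 4.46 to 26808, so log2 was taken. Of 34760 probe sets, 21640 carried 1 symbol, 1321 several and 11799 none. Each gene took its brightest probe set with 1 symbol, which left 19937 genes, 954 of them with a choice.

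Limma 3.58.1, run in R 4.3.3, gave the differences (lmFit with a mean per group over all 10 arrays, eBayes, two-sided, Benjamini-Hochberg, threshold 0.05, 11.32 degrees of freedom). The number of arrays limits the precision. The scripts were tested on simulated data. The members and lists were chosen with earlier results of these data known.

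Values in every array were given for the 4 members of each class with the smallest p in each comparison, for common proliferation markers and for members whose probe sets differ in sign. Of the other pathway lists, called genes and the 2 smallest p in each comparison were named. Nusap1, the reference gene Mki67 and the r minimum of 0.7 were chosen after values were seen. Array numbers in the titles were not used as pairs, since deviations of same-numbered arrays from their group means correlated at -0.083 to 0.121. Differently numbered arrays were not set beside them, so this does not settle whether samples were paired. Alternatives covered normalization, centring, dim genes (mean log2 under 6), probe sets, variance prior, array weights, arrays in the fit, replicate block, sex, T cell and erythroid covariates, and leaving out arrays.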

Additional observations from a re-analysis of the deposited data

Results flagged for a closer look

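In the 4 delta arrays, Ube2c, the ubiquitin-conjugating enzyme of mitotic exit, read 7.01, 7.02, 7.05 and 7.31, and delta 4 stood apart, with a gap to its nearest neighbour of 0.864 of the whole range, above Dixon's 95% critical value. This was 1 of 46 members examined, where chance sets apart about 5% of groups.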

How the results depend on the processing

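No alternative called a member; the smallest adjusted p were 0.0911 for Mcm2 with dim genes left out (floxed against wild-type), 0.179 for Ncaph with array weights (delta against wild-type) and 0.109 for Ccna2 without delta 4 (delta against floxed). Genes called in floxed against wild-type went from 110 to 169 with dim genes left out, 208 with array weights, 193 with only the 2 groups, 188 with the replicate block, 2 with sex, 9 with the T cell mean, 15 with the erythroid mean, 6 with floxed 2 as the sole floxed array, and 18 (without wild-type 2) to 240 (without delta 4) with an array left out. The replicate block gives the sole array numbered 4, delta 4, a term of its own, so its differences are those without delta 4 and its counts do not show the block by itself. With floxed 2 or floxed 3 alone the spread comes from the other groups, and the lone array is assumed to vary like them. In delta against wild-type 15 became 0 with every probe set, 9 with trend and robust, 0 with the 2 groups, 6 with the replicate block, 3 with sex, 0 with floxed 2 alone, and 0 to 23 with an array left out. In delta against floxed 1 became 3 with trend and robust, 2 with the 2 groups, 2 with the replicate block and 1 to 10 with an array left out. The S-phase median in floxed against wild-type was 0.1592 with sex and 0.0585 (without floxed 3) to 0.1001 with an array left out, and in delta against floxed -0.1245 with sex. The mitotic median in delta against floxed was -0.1742 with the T cell mean and -0.2026 with floxed 2 alone, and in floxed against wild-type -0.0295 with floxed 3 alone. With an array left out the S-phase medians were -0.0132 to 0.0085 in delta against wild-type and -0.0927 to -0.0676 in delta against floxed, and the mitotic medians 0.0263 to 0.0867 in floxed against wild-type, -0.1148 to -0.0639 in delta against wild-type and -0.1395 to -0.0815 in delta against floxed. Mitotic members at r of 0.7 numbered 2 with group means removed, 1 without floxed 1 and floxed 2 (S-phase 0), and 3 to 8 with an array left out. Over all genes the shares were 1.97%, 1.60% and, with an array left out, 1.39% (without floxed 2) to 3.37% (without wild-type 1). Of 1518 values for 69 named differences 1446 kept their sign, none of them called, and 72 changed it, in 25 differences whose size was at most 0.28. In floxed against wild-type the sign turned with the T cell mean for Ccne1 (-0.0649), Pola1 (0.0039) and Tpx2 (0.0175), with array weights for Gins1 (-0.0195), Mcm5 (-0.0115) and Tpx2 (0.0013), with centring for Tpx2 (0.0008), with the erythroid mean for Ccne1 (-0.0204), Cdc6 (-0.0198), Pola1 (0.0989), Tyms (-0.0493) and Tpx2 (0.0238), with floxed 2 alone for Ccne1 (-0.0388), Gins1 (-0.0796), Mcm5 (-0.0248), Aurkb (0.0456) and Tpx2 (0.0195), with quantile normalization for Ccne1 (-0.0095) and Tpx2 (0.0182), and with sex for Ccne1 (-0.0181), Gins1 (-0.0403) and Pcna (-0.2683). In delta against wild-type it turned with array weights for Mki67 (-0.0703) and Ccnb2 (-0.0271), with the replicate block, as without delta 4, for Mki67 (-0.0378) and with sex for Mcm3 (0.001). In delta against floxed it turned for Cdt1 with the T cell mean (-0.0573), array weights (-0.0664), floxed 2 alone (-0.1942) and sex (-0.0438), for Ccne1 with centring (-0.0011) and the replicate block, as without delta 4 (-0.0155), for Pcna (-0.1822) and Ncaph (0.0088) with the erythroid mean, for Mcm4 with floxed 2 alone (0.0167) and for Aurkb with sex (0.0842). With an array left out the ranges that crossed 0 were, in floxed against wild-type, Ccne1 -0.0211 to 0.0525, Gins1 -0.0044 to 0.1002, Mcm5 -0.0161 to 0.0858, Pola1 -0.1594 to 0.0106, Tyms -0.0801 to 0.1242 and Tpx2 -0.0402 to 0.0182. In delta against wild-type they were Ccne2 -0.0251 to 0.1739, Cdc6 -0.104 to 0.0046, Mcm3 -0.0611 to 0.0176, Rrm2 -0.1462 to 0.0201, Mki67 -0.1081 to 0.3162, Top2a -0.1577 to 0.0457 and Ccnb2 -0.0733 to 0.1206. In delta against floxed they were Ccne1 -0.0208 to 0.0528, Ccne2 -0.076 to 0.0137, Cdt1 -0.1 to 0.1166, Mcm4 -0.0923 to 0.0112, Pola1 -0.1627 to 0.0073, Pcna -0.0543 to 0.1802, Tyms -0.1849 to 0.0194, Aurkb -0.1359 to 0.0113 and Ncaph -0.0741 to 0.0222. The cause of these shifts was not tested.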
